A study of Mus musculus with 12 samples.

Results

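The data described here are the m6A peaks of control mouse limb buds, that is, every row of the authors' list that sets the control immunoprecipitate (IP) against the control input RNA. The list holds 41196 peaks of the 87954 peaks in the study's control and knockout lists together. The peaks were assigned by the authors to 16615 genes, and 84 peaks carried no gene. Limb buds were taken at E12.5 from embryos with 1 floxed and 1 wild-type Mettl14 allele (Mettl14 wt/flox, called cHet, the controls) and from embryos with both alleles floxed (Mettl14 flox/flox, called cKO). Each genotype had 3 biological replicates of input RNA and 3 of RNA pulled down with an m6A antibody, 12 libraries in 4 groups. Neither the Cre driver nor any pooling of embryos is named in the sources used here. The controls already carry 1 floxed allele.

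N6-methyladenosine (m6A) is a methyl mark placed on adenosines of messenger RNA by a complex around METTL3 and METTL14, with WTAP, VIRMA, RBM15, ZC3H13 and CBLL1 as further subunits. It sits in a short sequence context built around GGAC, is dense near stop codons and in 3′ UTRs, and is read by YTH-domain proteins, several of which lead marked transcripts to decay. In m6A sequencing, fragments bound by the antibody pile up over marked stretches, so that the ratio of IP to input over a stretch measures enrichment.

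A few peaks lie over microRNA host transcripts, and their hairpins are shown because they are stretches of peak RNA whose sequence was at hand. The H19 transcript, an abundant imprinted noncoding RNA of the embryo, carried a peak assigned to its microRNA gene Mir675 with a log2 enrichment of 2.26. That peak ran over chr7:142576429-142578143 on mm10, on the minus strand, and holds the Mir675 hairpin at chr7:142577064-142577147 (RefSeq, GRCm38.p6). A second such peak, at chr1:195036826-195037900 on the plus strand, had a log2 enrichment of 3.40 and holds the hairpins of Mir29b-2 (chr1:195037040-195037120) and Mir29c. Capitals mark GGACU, the form of the m6A core followed by a uridine:
Mir675: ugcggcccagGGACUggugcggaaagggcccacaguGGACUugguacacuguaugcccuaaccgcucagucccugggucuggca
Mir29b-2: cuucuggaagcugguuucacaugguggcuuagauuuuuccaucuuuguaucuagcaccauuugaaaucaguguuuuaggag
The Mir675 hairpin holds GGACU at 2 places and the Mir29b-2 hairpin at none. Searched on the transcribed strand only, GGACU occurs in 82 of 1005 mouse hairpins of the RefSeq table (8.16%) and in 4 of the 33 that lie inside a cHet peak of under 2000 bases (12.1%). The match describes these letters and does not place a methylated base, and the rest of each peak was not searched.

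The 3 cHet input libraries were close to each other. Their FPKM values (sequenced fragments corrected for transcript length and for library size) summed to 261691 to 275299, and 13523 to 13615 genes reached 1 FPKM in each. Pearson correlations of log2(FPKM + 1) between them, across genes, were 0.990 to 0.995. Of 8 limb mesenchyme markers 7 had a mean of at least 1 FPKM, the exception being Pitx1, which is typical of the hindlimb, at 0.55 FPKM. The sum over the 5 erythroid markers ran from 6793 to 9488 FPKM, against 235 to 247 FPKM for the limb mesenchyme markers, 126 to 139 for muscle, 143 to 164 for epidermis and 36.9 to 41.5 for endothelium. The list is therefore a list over a mixed tissue. In such bulk samples fewer cells of a type and less RNA per cell cannot be told apart. The list has no replicate of its own, so its enrichments are the authors' values without a spread, and only input RNA could be tested over samples.

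Stop-codon peaks had the highest median enrichment. Of all cHet peaks, 7793 (18.9%) were annotated by the authors as stop-codon peaks, with a median log2 enrichment of 2.66, that is 6.34-fold. Peaks in 3′ UTRs were more numerous, 15052 or 36.5%, but weaker, with a median of 1.62. The medians were 1.92 for 3400 start-codon peaks, 1.68 for 2043 peaks in 5′ UTRs, 1.65 for 7186 exonic peaks outside these regions and 1.30 for 1802 intronic peaks. Noncoding exons, with 3798 peaks, came second at a median of 2.28 but had the higher 90th percentile, 3.68 against 3.53.

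Stop-codon peaks were also the stronger ones inside single genes. Among 3551 genes with both kinds of peak, the stop-codon peak was stronger than the strongest 3′ UTR peak in 2691 (75.8%), by a median of 0.71 on the log2 scale. Stop-codon peaks were also stronger than other exonic peaks in 1640 of 2345 genes, than start-codon peaks in 1196 of 1778 and than 5′ UTR peaks in 692 of 941. Start-codon and 5′ UTR peaks did not order each other, since the start-codon peak was the stronger one in 173 of 355 genes. When 1 peak per gene was kept, the strongest, 34.5% of genes had it at the stop codon and 28.1% in the 3′ UTR. The classes also differed in length from first to last base on the genome. The median was 2219 bases for stop-codon peaks, against 400 in 3′ UTRs, 703 in 5′ UTRs and 225 in introns. Exonic and start-codon peaks were longer, at 2482.5 and 4188.5 bases, but weaker. Enrichment is given per whole peak and is not placed at the stop codon itself. The part of length in these differences was not tested.

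**Figure D1:**
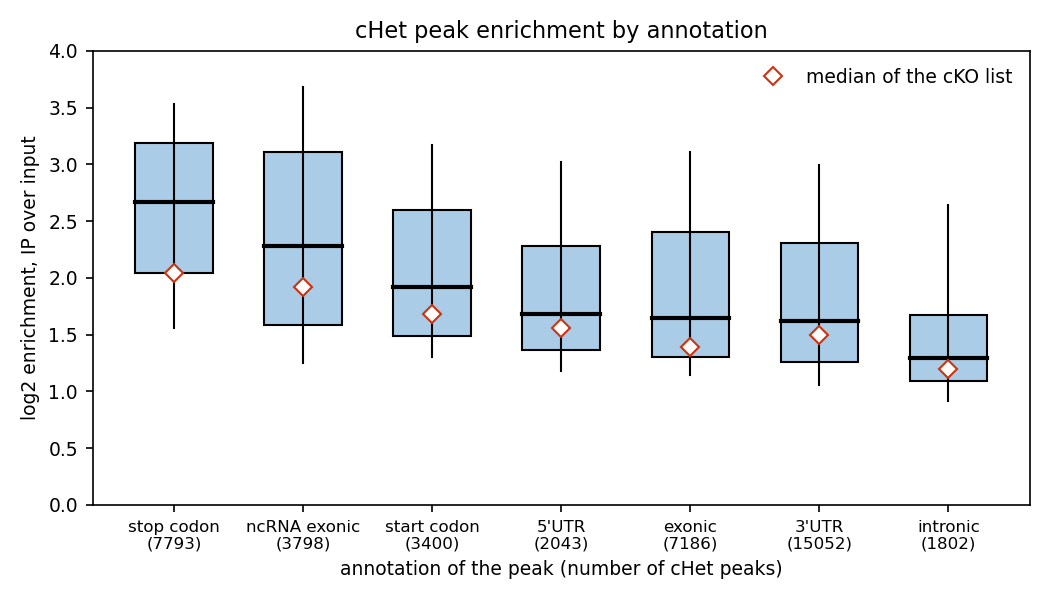
Log2 enrichment of IP over input (vertical axis) for the cHet peaks of each annotation class, with the number of peaks under each name. Boxes span the middle 50% of peaks, thick lines are medians, thin lines run from the 10th to the 90th percentile, and diamonds give the median of the cKO list, which is 2.04 against 2.66 for stop codons. Classes of 122 further peaks are not drawn.

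Across all classes the log2 enrichment ran from 0.50 to 7.73 with a median of 1.87 (3.64-fold) and quartiles of 1.36 and 2.68. A log2 enrichment of at least 1 was met by 95.5% of the peaks and of at least 3 by 6977 peaks (16.9%). The authors listed p as 0 for 8187 peaks, and 3 peaks stood just above an adjusted p of 0.05, the highest at 0.0502.

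The span of a peak, from its first to its last base on the genome, had a median of 750 bases and quartiles of 300 and 3632. It includes introns, because peaks that cross exon junctions were listed by their outer ends, and 256 peaks spanned over 100000 bases. Spans of at most 500 bases made up 41.1% of the list and had a median log2 enrichment of 1.44, against 2.26 for spans over 500 and up to 5000 bases and 2.24 for longer ones. Of all spans, 51.4% were whole multiples of 25 bases. Peaks often stopped at an annotated boundary: 7965 (19.3%) ended exactly at the 3′ end of their gene and 1891 (4.59%) began exactly at its 5′ end.

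Nearly every protein-coding gene that the limb bud transcribed carried at least 1 peak. With a gene counted as expressed at a cHet mean of at least 1 FPKM, 12107 of 13597 expressed genes had a peak (89.0%, 95% Wilson interval 88.5 to 89.6). Among protein-coding genes the share was 11180 of 11474 (97.4%), and among all other expressed genes 927 of 2123 (43.7%). In the cKO list, 12259 of the same expressed genes had a peak, and 11293 of the protein-coding ones. Having a peak therefore did not set the control list apart from the cKO list. Expressed genes most often had 2 peaks (3496 genes) or 1 peak (3123 genes), 2462 had 3, 3026 had 4 or more and 68 had 10 or more. Intervals cover counting error only.

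**Figure D2:**
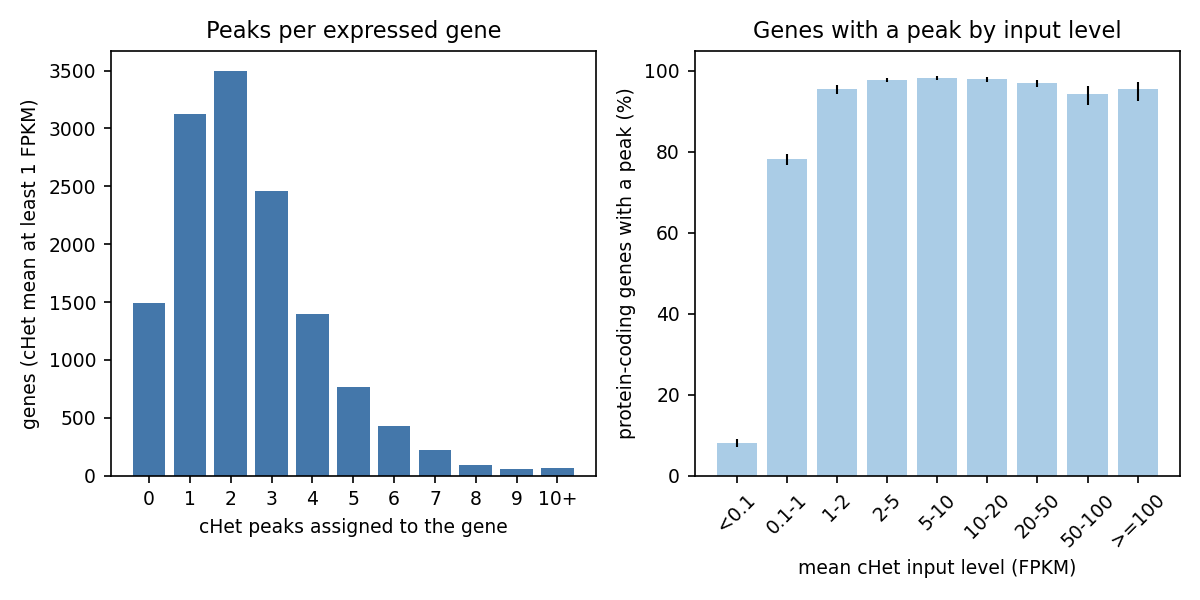
Left, number of expressed genes (vertical axis) by number of cHet peaks assigned to them (horizontal axis), with 1490 genes at 0 and 3496 at 2. Right, percent of protein-coding genes with a peak (vertical axis) by mean cHet input level in FPKM, with 95% Wilson intervals. The share is 8.14% under 0.1 FPKM, 78.2% from 0.1 to 1 FPKM and 94.3% to 98.4% in every higher class.

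The share with a peak rose steeply with level up to 1 FPKM and fell slightly at high level. It was 8.14% for protein-coding genes under 0.1 FPKM, 78.2% from 0.1 to 1 FPKM, 95.5% from 1 to 2 FPKM, 98.4% from 5 to 10 FPKM (95% interval 97.8 to 98.8), 97.1% from 20 to 50 FPKM and 94.3% from 50 to 100 FPKM (91.5 to 96.3). Genes under 1 FPKM still held 7713 of the peaks, on 4148 of 18126 genes. Of 2030 genes listed at 0 FPKM in all 3 cHet input libraries, 80 carried a peak, and 39 of these 80 were antisense genes. The sources used here do not say whether reads were counted by strand, so an antisense gene and its partner cannot be told apart.

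Strength fell with level among expressed genes, while number followed length. The median log2 enrichment of a protein-coding gene's strongest peak was 2.72 at 1 to 2 FPKM, 2.81 at 2 to 5 FPKM, 2.33 at 20 to 50 FPKM and 1.91 from 100 FPKM upward. Over the 12107 expressed genes with a peak, the Spearman correlation of strongest enrichment with cHet FPKM was -0.18, and that of peak number with gene length was 0.47. These are descriptions across genes that share libraries, and the input level is also the denominator of the enrichment. Protein-coding genes under 5000 bases had a mean of 1.67 peaks where they had any, and genes of 100000 bases or more had 3.98. Strongest enrichment hardly followed length, with a Spearman correlation of 0.09.

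**Figure D3:**
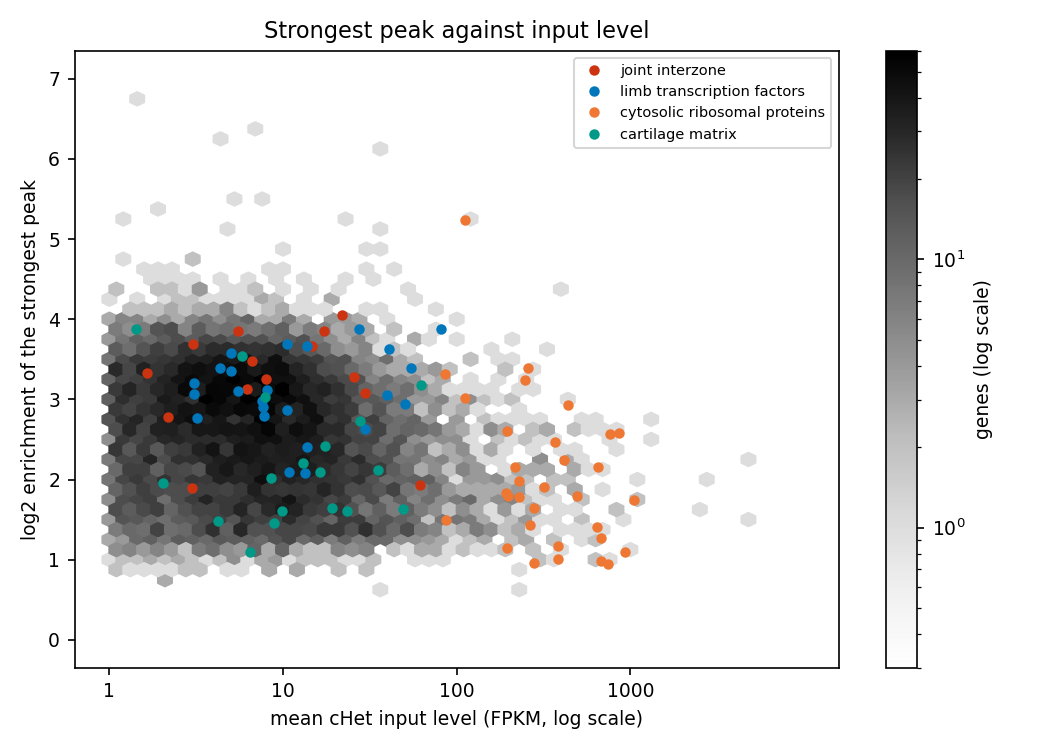
Log2 enrichment of the strongest cHet peak (vertical axis) against mean cHet input level in FPKM (horizontal axis, log scale) for expressed genes with a peak. Grey cells hold genes, darker where more of them lie, and coloured points are members of 4 gene lists. Most joint interzone and limb transcription factor genes lie above a log2 enrichment of 2.5, while most ribosomal protein genes lie at over 100 FPKM and below 2.5, with Rpl30 at 5.24 apart from them.

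Among expressed genes, those with most peaks were long genes of signalling, cytoskeleton and chromatin. Wnk1, a kinase of ion transport control, led with 15 peaks, the strongest at a log2 enrichment of 2.40, in an exon. Chd9, a chromatin remodeller, Usp29, a deubiquitinase, and Dst, a linker of cytoskeletal filaments, had 14 each, with strongest peaks at 3.98, 3.80 and 3.54. Macf1, a second filament linker, Kmt2d and Kdm5a, a methyltransferase and a demethylase of histone lysines, Cdc42bpa, a kinase, and Cux1, a transcription factor, had 13 each. Atrx, a chromatin remodeller, had 12. The strongest peak was annotated as exonic in 8 of these 10 genes, at the stop codon in Kdm5a and in the 5′ UTR in Usp29.

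The highest single enrichments above 5 FPKM were of mixed kinds. Ptprd, a receptor phosphatase, had a 5′ UTR peak at a log2 enrichment of 6.39 whose span of 141694 bases crosses introns, with an authors' adjusted p of 5.33e-10. Syncrip, an RNA-binding protein, had one at 6.16 over a 5′ UTR span of 1506 bases, with an adjusted p of 6.59e-275. Both stood as high in the cKO list, at 6.08 and 6.51. Rpl30, a ribosomal protein, followed at 5.24 with a 275-base peak at the stop codon. Ccdc9, Srp54b and Senp5 reached 5.11, 4.84 and 4.82. The other 4 names of the top 10, Znf41-ps, Gm13237, Gm7551 and Gm13577, are annotated as pseudogenes, so their reads can belong to near-identical copies and these values are uncertain.

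Absence of a peak at high level was rare. Of the 294 expressed protein-coding genes with no assigned peak, 82 were overlapped on their own strand by a peak that the list assigns to another gene. The 10 of highest input level were Hba-a2 and Hbb-bt, globins with near-identical copies, mt-Co1, mt-Atp6 and mt-Co3 of the mitochondrial genome, Rps2, Ranbp1, Fkbp4, Cox8a and Crabp1. A peak assigned to a neighbour overlapped mt-Atp6 and Ranbp1 and, at 1 end only, mt-Co3, and none overlapped the other 7. Crabp1, a binder of retinoic acid inside cells, had 115, 119 and 139 FPKM in the cHet libraries without a peak. Of these 10 genes, 8 had a peak of 0.85 to 2.02 in the cKO list, and mt-Atp6 and Ranbp1 had none there either.

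Genes that pattern the limb and its joints stood above the typical gene in strongest enrichment. List values cover members with a cHet mean of at least 1 FPKM. The median over all expressed genes with a peak was 2.62. It was 3.31 for 14 joint interzone genes, 3.25 for 6 chondrogenic transcription factors, 3.09 for 24 limb transcription factors, 3.01 for 23 genes of the BMP pathway and 2.84 for 12 Hox genes, all of which carried a peak. Immediate early and stress genes, short-lived transcripts, had the highest list median, 3.39, with the strongest peak at the stop codon in 9 of 9. These lists are descriptions, and no test sets them against other genes.

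Gdf5, a BMP-family ligand that marks the forming joint and is named in the study's title, led the joint interzone list. Its 1 peak, annotated to the stop codon, ran over chr2:155941023-155945367 on mm10, minus strand, with a log2 enrichment of 4.05. Its input levels were 20.3, 20.7 and 24.3 FPKM in the cHet libraries. Wnt5b at 3.85, Gdf6 at 3.69 and Erg at 3.67 followed it, a ligand of the Wnt family, a close relative of Gdf5 and an ETS transcription factor of joint and vessel. The lowest members were Sfrp2, a secreted Wnt modulator, at 1.93 and Dcx, a microtubule-binding protein, at 1.89. In the cKO list the Gdf5 peak stood at 2.76, and 13 of the 14 joint interzone genes had a lower strongest value there.

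Among regulators of cartilage, Foxc1 reached 3.88, Sox5 3.47, Nkx3-2 3.29, Sox9 3.21 and Sox6 3.06. Sox9, the main transcription factor of the cartilage lineage, had 3 peaks with the strongest at the stop codon, at 28.0, 29.9 and 30.8 FPKM. Of the RUNX factors, which drive later cartilage and bone steps, Runx2 had 7 peaks and Runx3 had 2 with the strongest at 2.09. The strongest Runx2 peak, at 3.15, was annotated to the 3′ UTR of a single transcript. The 3′ UTR peaks annotated to other Runx2 transcripts stood at 1.34 and 1.51. Runx1t1, a corepressor partner, had 3.29 and Cbfb, the shared subunit of RUNX proteins, 2.14. Limb transcription factors were led by Twist1 at 3.88, Msx1 at 3.87 and Msx2 at 3.70, each with its strongest peak at the stop codon, and the 12 expressed Hox genes by Hoxd11 at 3.99. In the BMP pathway, the ligand Bmp4 had 3.90, the decoy receptor Bambi 3.75 and the receptors Acvr2a and Acvr2b 3.41 and 3.37, while the antagonist Chrd had 1.56.

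Structural and housekeeping transcripts stood lower. The list medians were 1.63 for 7 erythroid genes, 1.76 for respiratory chain and for glycolytic enzymes, 1.82 for cytosolic ribosomal proteins, 1.97 for proteasome subunits and 2.07 for SR and hnRNP splicing factors. Their median input level was 57.6 to 280 FPKM in these lists, against 6.72 FPKM for all expressed genes, and the part of level in the difference was not tested. Ribosomal proteins ranged from 0.94 for Rplp0 to 5.24 for Rpl30. Among the 12 expressed glycolytic enzymes Gapdh was highest, at 4.20, followed by Hk2 at 2.92. Pfkp, below 1 FPKM, also carried a peak at 4.20. Gapdh and the ribosomal proteins have many pseudogenes that could share reads.

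Cartilage matrix genes were spread over the whole range, with a median of 2.06. Comp reached 3.88, Acan, the aggrecan core protein, 3.54 and Col2a1, the main cartilage collagen, 3.18. Matn1 and Papss2, the latter needed for sulfation of proteoglycans, stood at 1.61, Epyc at 1.48, Cytl1 at 1.46 and Mia at 1.10. Comp was listed at 0.95, 1.14 and 2.18 FPKM, so its rank rests on a low level. The 8 expressed small leucine-rich proteoglycans had a median of 2.20, from Kera at 3.28 to Aspn at 1.46. Fibrillar matrix genes had 2.73, from Col5a2 at 3.69 to Fn1 at 1.22.

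**Figure D4:**
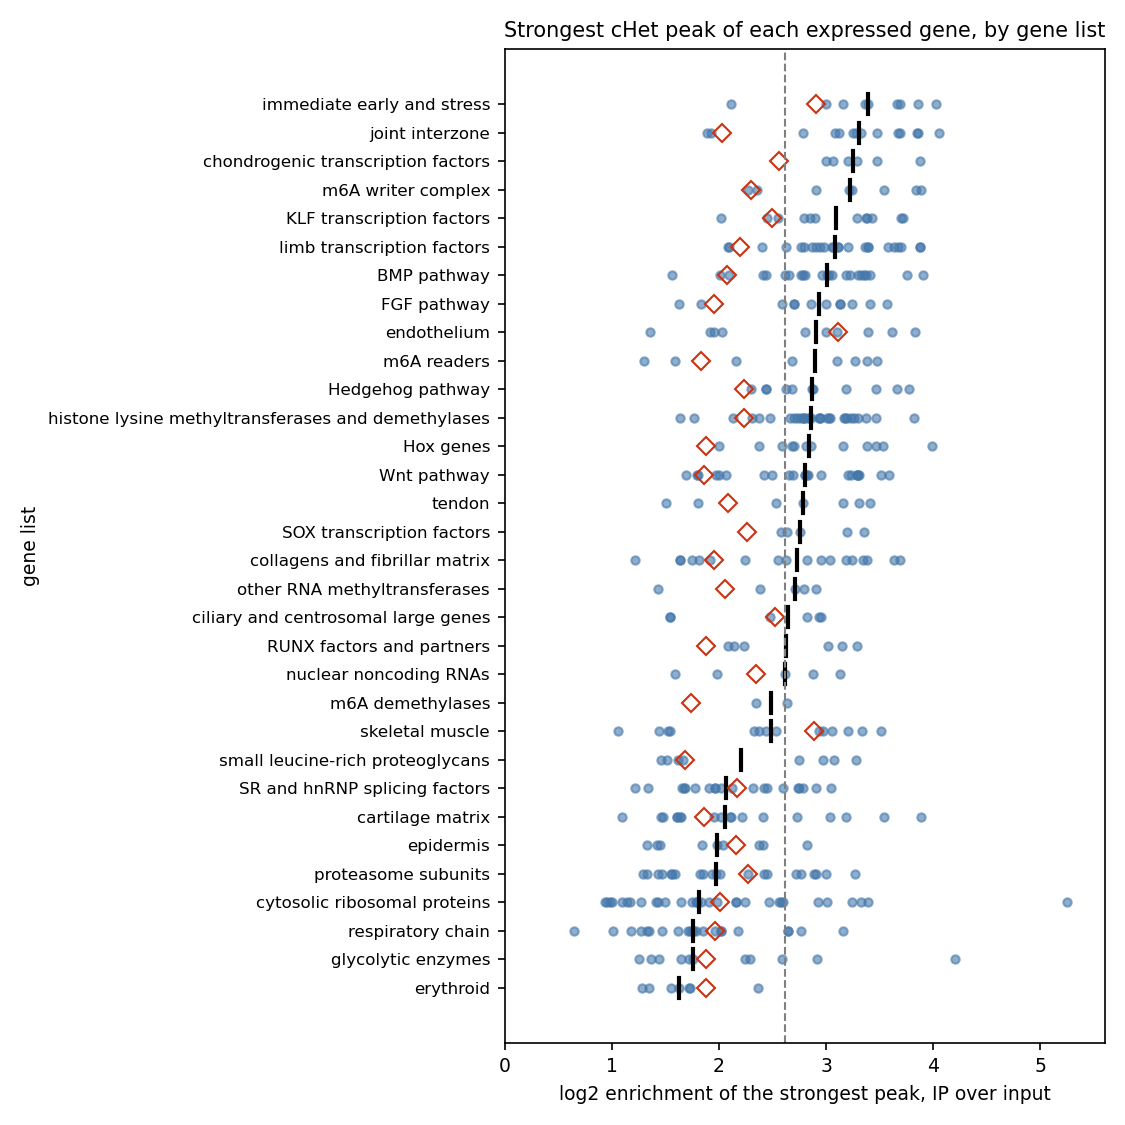
Log2 enrichment of the strongest cHet peak (horizontal axis) of each expressed gene with a peak, 1 point per gene, for 32 gene lists (vertical axis) ordered by median. Black bars are cHet medians, red diamonds medians in the cKO list, and the dashed line the median of all expressed genes, 2.62. The diamonds lie left of the bars in 23 lists and right of them in 9, among them endothelium, erythroid, epidermis and skeletal muscle.

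In the m6A machinery, writer-complex and reader genes had list medians above the 2.62 of all expressed genes. The readers had 2.89, while the 2 demethylases, at 2.49, and the writers Mettl3 and Mettl14 lay below 2.62. All 8 writer-complex genes had a peak, with a median of 3.23. Rbm15 and Rbm15b, adaptors of the complex, had 3.88 and 3.84, and Wtap, its scaffold, 3.54. The catalytic subunit Mettl3 had 2.36 and Mettl14, its partner, 2.27. Mettl14 carried 7 peaks, of which 5 lay in its 3′ UTR. Of the readers, Ythdf3 had 3.48, Ythdf2 3.38, Ythdc1 3.27 and Ythdf1 3.10, while Igf2bp1 had 1.59 and Ythdc2 1.30. The demethylases Fto and Alkbh5 had 2.64 and 2.34.

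Noncoding and mitochondrial RNAs were listed as well. Malat1, a nuclear RNA, had 3 peaks with the strongest at 3.13, and Meg3, an imprinted RNA, had 7 with the strongest at 2.87. H19, the most abundant of them at a mean of 2997 FPKM, had 1 peak of its own at 1.98 beside the Mir675 peak shown above. Xist and Gas5 had no peak. The mitochondrial genome held 13 peaks, the strongest on mt-Nd2 and, nearly level with it, mt-Nd6.

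Most of the control peaks recurred in the cKO list. A cKO peak overlapped 35985 of the cHet peaks (87.4%) by at least 1 base, and a cHet peak overlapped 79.6% of the 46758 cKO peaks. With overlap of at least 50% of both peaks, the share of cHet peaks was 63.1%. The cHet peaks with a cKO partner had a median log2 enrichment of 1.93 and those without one 1.40. By class, the share was 94.4% for stop-codon and 94.5% for start-codon peaks, 86.6% for 3′ UTR peaks and 76.5% for intronic peaks.

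Enrichments in the cKO list were lower, and not equally for all genes. The sources used here do not say how IP was scaled to input in each list, and with 1 list per genotype there is no test. The median over peaks was 1.87 in cHet and 1.59 in cKO, and the class medians differed by -0.62 at stop codons and -0.10 in introns. Of 11981 expressed genes with a peak in both lists, 8086 (67.5%) had a lower strongest value in the cKO list, with a median difference of -0.31. It was lower for 23 of 23 BMP pathway genes, 11 of 12 Hox genes, 21 of 24 limb transcription factors and 28 of 31 histone lysine methyltransferases and demethylases. It was higher for 10 of 10 endothelial genes, 8 of 9 epidermal genes, 6 of 7 erythroid genes, 11 of 14 skeletal muscle genes and 19 of 22 respiratory chain genes.

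Input RNA was compared between genotypes with limma on log2(FPKM + 1) over the 13575 genes whose mean reached 1 FPKM. Folds on this scale understate the change of low genes. At a Benjamini-Hochberg adjusted p under 0.05, 36.2% of tested genes were called, 18.7% higher and 17.5% lower in cKO. The labels call the 3 replicates per group biological. The cHet input libraries are the denominator of every cHet enrichment and also the baseline of this comparison, so both are given side by side as a description.

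Genes with strongly enriched transcripts in the controls were more often called higher in cKO, and genes with weak peaks more often lower. With a strongest log2 enrichment of at least 3.5, 38.0% of 1205 genes were higher and 10.4% lower, and the median log2 change was 0.17. From 3 to 3.5 the shares were 34.9% and 10.2%. From 1.5 to 2 they were 8.10% and 26.2%, and under 1.5 they were 4.91% and 29.9% of 1059 genes, with a median of -0.14. Of 1476 tested genes without a peak, 5.83% were higher and 19.9% lower, the latter near the 17.5% of all tested genes. Of the 300 protein-coding genes among them, 6.67% were higher and 33.3% lower, the latter well above that share. Grouping genes by strongest enrichment was chosen after it was seen that nearly every protein-coding gene has a peak.

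Between 5 and 20 FPKM, 39.1% of genes with a strongest enrichment of at least 3 were higher, against 7.71% of those under 2. Above 20 FPKM the shares were 24.3% and 1.14%. Lower calls were 9.37% and 24.0% between 5 and 20 FPKM, and 22.2% and 46.1% above 20 FPKM. Above 20 FPKM, genes with an enrichment of at least 3 thus had nearly as many lower as higher calls. Their median log2 change was 0.00672. The median deviation from the cHet mean of genes at 3.5 or more was 0.14, 0.16 and 0.21 in the 3 cKO libraries, and that of genes under 1.5 was -0.14, -0.16 and -0.11. All 3 are set against the same cHet mean, so they are not independent of each other. Leaving out cHet replicate 2 lowered the share of higher calls at an enrichment of at least 3 from 35.8% to 23.7%, and the share of lower calls under 2 from 27.5% to 14.6%. Without cKO replicate 2 the latter was 16.7%. Over all tested genes, leaving out cHet replicate 2 lowered higher calls from 18.7% to 11.2% and lower calls from 17.5% to 9.16%. Without cKO replicate 2, 10.5% of all tested genes were lower.

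**Figure D5:**
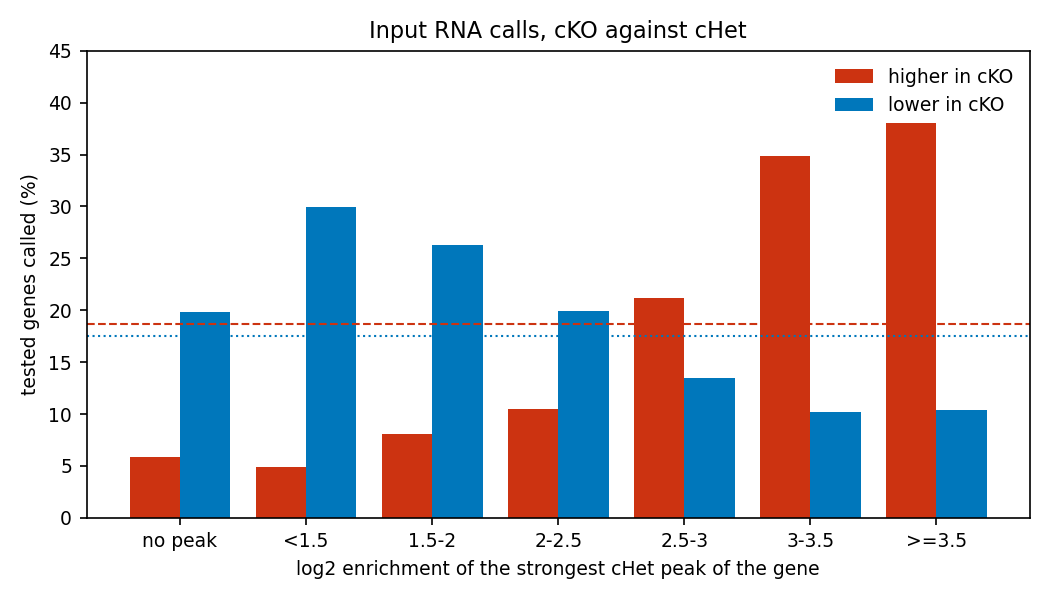
Percent of tested genes called higher (red) or lower (blue) in cKO input RNA (vertical axis) by log2 enrichment of the strongest cHet peak (horizontal axis), limma, adjusted p under 0.05. The dashed red and dotted blue lines are the shares over all 13575 tested genes, 18.7% and 17.5%. Higher calls go from 4.91% under 1.5 to 38.0% at 3.5 or more.

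By number of peaks the shares moved in the same direction. Genes with 1 peak were called higher in 15.2% and lower in 22.2%, and genes with 4 or more in 26.9% and 9.57%. The median log2 change of genes with a peak exceeded that of genes without by 0.24, and by 0.25, 0.31 and 0.10 in the single cKO libraries. Over protein-coding genes only the difference was 0.15, and without the filter on low values it was 0.00218. The median deviation of genes without a peak was 0.10, 0.05 and -0.13 for the cHet replicates against -0.25, -0.30 and -0.05 for the cKO replicates, so the groups overlapped. For the 300 protein-coding genes among them it was -0.010, 0.013 and 0.006 against -0.154, -0.209 and -0.133, without overlap.

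Of 31 histone lysine methyltransferases and demethylases 22 were called higher and none lower, with 5.58 peaks per gene on average and a median strongest enrichment of 2.85. Leaving out single libraries gave 16 to 23. Kmt2d, with its 13 peaks, had 3.32, 3.66 and 5.24 FPKM in cHet and 11.1, 9.81 and 10.9 in cKO. All cKO libraries were above all cHet libraries, and the log2 change was 1.21 (SE 0.14, limma adjusted p 0.00183). Of 24 limb transcription factors 13 were higher and 1 lower, among them Msx2, Zfhx4 and Hand2, all with strongest enrichments over 3.6. Of 23 Wnt pathway genes 14 were higher and 1 lower, and of 12 Hox genes 5 were higher and 1 lower. Other signalling lists with medians as high did not lean that way. The BMP pathway had 5 higher and 5 lower of 23, the FGF pathway 3 and 4 of 12 and the Hedgehog pathway 2 and 3 of 11. Beside all these counts, 18.7% of all tested genes were higher and 17.5% lower.

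Cartilage matrix went the other way whatever the strength of its peaks. Of 17 tested genes 16 were lower, from Acan with a strongest peak of 3.54 to Mia with 1.10, against 17.5% of all tested genes. With any single library left out, under quantile normalization or with the replicate number as a block, 15 to 16 were lower. The share over all tested genes was 9.16% to 18.5% with 1 library left out, 16.3% under quantile normalization and 9.76% with the block. Acan had 4.72, 5.92 and 6.65 FPKM in cHet and 2.62, 1.81 and 1.46 in cKO, without overlap. Papss2 had 24.8, 22.4 and 22.7 FPKM in cHet and 6.25, 5.99 and 5.18 in cKO, a log2 change of -1.84 (SE 0.08, limma adjusted p 0.00031). Small leucine-rich proteoglycans were lower in 7 of 8, with Dcn at 13.2, 16.1 and 17.9 FPKM in cHet and 5.18, 3.52 and 4.39 in cKO. These RNAs are abundant in cartilage and connective tissue cells, and the share of such cells was not measured.

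Joint interzone genes were more often lower than higher, and RUNX factors and partners were split. Of 14 joint interzone genes 7 were lower and 1 higher. Without cHet replicate 2 3 were lower, and 4 were lower without cKO replicate 2 or under quantile normalization. The share of lower calls over all tested genes was 17.5%, and 9.16%, 10.5% and 16.3% in those settings in turn. Gdf5 had 18.8, 17.0 and 15.7 FPKM in cKO, below all cHet values of 20.3 to 24.3, with a log2 change of -0.32 (SE 0.09, limma adjusted p 0.0363). That call was lost without cHet replicate 2 or 3, without cKO replicate 2 or 3, under quantile normalization, with the replicate block and without the level filter. Nog, a BMP antagonist, fell from 8.60, 7.31 and 8.02 FPKM to 4.15, 3.94 and 3.60. Of 6 RUNX factors and partners 3 were higher, Runx1t1, Tle1 and Tle3, and 2 were lower. Without cKO replicate 2 or without cKO replicate 3, 0 were higher by limma, against 11.8% and 12.2% of all tested genes. Runx2 fell from 4.12, 3.54 and 3.79 to 2.46, 2.01 and 1.98 FPKM, and Runx3 from 1.24, 1.46 and 1.89 to 0.538, 0.535 and 0.399. Limma called 0 of the 6 chondrogenic transcription factors, of which 2 had an unadjusted p under 0.05. Runx3 lies so near the level filter that leaving out a cHet library could drop it from the test.

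Housekeeping lists of low enrichment were mostly lower on the deposited scale. Lower calls numbered 19 of 33 ribosomal proteins, 19 of 23 respiratory chain genes, 19 of 22 proteasome subunits and 10 of 12 glycolytic enzymes. Under quantile normalization they numbered 1, 7, 14 and 4. Without cHet replicate 2 they numbered 5, 8, 13 and 4, and without cKO replicate 2 they numbered 7, 11, 16 and 6. Over all tested genes lower calls were 17.5%, and 16.3%, 9.16% and 10.5% in these settings in turn. Summed FPKM was lower in every cKO library, at 237288 to 255907, than in every cHet library. Of 7 erythroid genes limma called 0, and 0 had an unadjusted p under 0.05.

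In the m6A machinery, Mettl14 itself had 5.08, 4.54 and 4.39 FPKM in cHet and 2.67, 3.07 and 2.63 in cKO, so that the labels and the targeted gene go the same way. The log2 change was -0.58 (SE 0.08, limma adjusted p 0.00289). Which exons were floxed is not stated in the sources used here. Of the 8 writer genes 6 were higher, and Mettl14 and Mettl3 were lower. Over all tested genes 18.7% were higher and 17.5% lower. Higher writer genes numbered 5 without cHet replicate 2, without any single cKO replicate and with the replicate block. In those settings 11.2% to 15.9% of all tested genes were higher. The Mettl3 call held without cHet replicate 1 but was lost without any other single library. Rbm15, the most enriched of them, rose from 4.07, 3.92 and 3.02 FPKM to 9.36, 10.6 and 11.9, a log2 change of 1.32. Ythdf2, a reader linked to decay of marked RNA, rose from 20.8, 19.8 and 19.3 FPKM to 41.7, 42.3 and 42.7, and Ythdf1 from 29.8, 30.5 and 29.0 to 48.9, 52.3 and 51.7. In both the groups did not overlap.

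Among all genes with a cHet peak, the 5 largest rises without overlap were Snhg4, Gm7045, Zfp292, Tstd1 and Inka1. Their strongest peaks stood at 1.60, 3.05, 3.65, 1.89 and 3.49, so both weak and strong peaks were among them. Snhg4, listed with both protein-coding and processed transcripts, varied most, with 0.0383, 0.872 and 0.0258 FPKM in cHet and 5.19, 1.06 and 11.1 in cKO. Its call was lost without any single library but cKO replicate 2. Zfp292, a zinc finger protein with its peak at the stop codon, had 16.7, 11.1 and 10.9 FPKM in cHet and 40.6, 48.7 and 54.8 in cKO. Inka1, a kinase inhibitor, rose from 19.1, 20.6 and 20.1 FPKM to 67.7, 62.8 and 59.3. The 5 largest falls were Mia, Papss2, Cytl1, Dcn and Aspn, all with strongest peaks between 1.10 and 1.62. Of the genes without an assigned peak, Crabp1 fell from 115, 119 and 139 FPKM to 55.6, 46.6 and 46.9.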

How the data were processed

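Reads were handled with fastp and HISAT2 on mm10, per the submitters' processing notes; peak caller, annotation and strand handling are not named in the labels or headers. The authors deposited 1 peak list per genotype with a log2 enrichment, a p-value and an adjusted p-value per peak, and FPKM values of 31723 genes for each of 6 input libraries, as the file headers show. All columns of values were matched to samples, so 0 were left out. Sequencing depth is unknown, as FPKM carries none. Values per IP library were not used here.

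Listed starts count from 0, so 1 was added; span is end minus listed start. Peaks were joined to genes by identifier (98.8% of peaks matched), with overlap counted on the same strand. Of symbols on more than 1 row (63), the row of highest cHet mean was used for the lists. Input RNA was fitted with limma 3.58.1 (lmFit, eBayes with trend, two-sided) on log2(FPKM + 1) for genes whose mean reached 1 FPKM, after a test on simulated data. The members and the 32 gene lists (451 genes found) were chosen with earlier results of these data known. Named genes are the 10 expressed genes (cHet mean of at least 1 FPKM) with most peaks, the 10 with highest enrichment at 5 FPKM or more, the 10 most abundant protein-coding genes without a peak, Mettl14, the 5 largest rises and falls, and up to 4 most enriched and 2 peakless members of each list; Runx3, Cbfb, Sox9 and other low-ranked list members were added after their values were seen. Alternatives covered pseudocount, filter, normalization, stricter peaks (log2 enrichment of at least 1, adjusted p under 0.01), overlap, the replicate block and left-out libraries. Same-number correlations of deviations were -0.084, 0.040 and -0.196. With 3 libraries per group, these values cannot decide whether samples of the same replicate number were matched.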

Additional observations from a re-analysis of the deposited data

How the results depend on the processing

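The share of expressed genes with a peak was 76.7% with expression set at 0.1 FPKM, 90.5% at 10 FPKM, 91.2% when any peak over the gene on its strand counted (chosen after seeing the data) and 88.8% to 89.4% with 1 cHet library left out. The median log2 enrichment was 1.76 over peaks of expressed genes and 2.69 over strongest peaks. The stop-codon share was 19.8% with stricter peaks and 34.5% over strongest peaks, and the 3′ UTR share 35.6% and 28.1%. The Spearman correlation across genes of strongest enrichment with level was -0.240 at 0.1 FPKM, -0.215 at 10 FPKM and -0.177 to -0.174 with 1 library left out. The overlap with cKO peaks was 63.1% at 50% of both peaks and 86.4% with stricter peaks. The 4912 input calls became 2889 with the replicate block, and 2758 to 5109 with 1 library left out (2758 without cHet replicate 2, 3032 without cKO replicate 2). Whether the replicate numbers pair the samples is not known, and not every sample correlated best with its own number. The median difference between genes with and without a peak was 0.00218 without the filter, 0.175 to 0.319 with 1 library left out, 0.154 over protein-coding genes and 0.245 with the block. Under quantile normalization the log2 change of Cox8a was 0.0400, of Fkbp4 0.0333, of Rpl5 0.00613 and of Rps24 0.0828, against falls on the deposited scale. The cause of these shifts was not tested. Of 84 named genes called by limma, 48 kept the call under every alternative run. Summed block length in place of span, and a motif search in peaks, were not run. FPKM gives no depth, so counting error behind low values cannot be given.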
